A study of Mus musculus with 2 samples.

Results

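The clustered protocadherin genes were taken as every protein-coding gene of the GENCODE M21 annotation whose name begins with Pcdha, Pcdhb or Pcdhg, which gave 57 of 21938 protein-coding genes outside the mitochondrial chromosome. The 57 genes comprised 14 of the alpha cluster, 22 of the beta cluster and 21 of the gamma cluster. All of them lay on the plus strand at chr18:36930184-37841873 of the mm10 build. The name rule left out 1 further gene, Pcdhgb8, which the annotation lists as a polymorphic pseudogene. The annotation gives the name Pcdha11 to 2 neighbouring genes, ENSMUSG00000007440 and ENSMUSG00000102206, and both were kept.

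Clustered protocadherins are cell adhesion proteins of the cadherin family, known above all from neurons, where each cell uses its own combination of isoforms and the proteins mediate recognition between a neuron's own branches. In the alpha and gamma clusters each isoform has its own large variable first exon with its own promoter, which is spliced to a short set of constant exons shared by the whole cluster, whereas beta genes are single exons without constant exons. Most first exons are alternate ones, chosen promoter by promoter in individual neurons with the help of the DNA-binding protein CTCF and of distant enhancers. The C-type exons at the end of the alpha and gamma arrays, Pcdhac1, Pcdhac2, Pcdhgc3, Pcdhgc4 and Pcdhgc5, are instead used in a more constant manner.

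Chromatin accessibility was profiled by DNase-seq, in which fragments cut by the nuclease DNase I mark open DNA, in gastrocnemius (the large muscle of the calf). The tissue came from 10-day-old females of the F1 hybrid strain B6CASTF1/J, a cross of C57BL/6J and CAST/EiJ. There was 1 group of 2 libraries, biological replicates 1 and 2, each described in the labels as material of 3 females, with no treatment and no second condition. No test between groups was therefore possible, and the counts below carry Wilson 95% intervals that cover counting error only.

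The deposited peak lists differed in size. The stricter list held 114758 peaks in replicate 1 and 26804 in replicate 2, with median heights of 1.18 and 1.48 on the authors' depth-normalized signal scale. A peak was called shared when it overlapped a peak of the other library over at least 50% of either, which held for 16.7% of the peaks of replicate 1 and 70.3% of those of replicate 2. Intervals with a deposited false discovery rate (FDR) covered 2.14% and 0.632% of the genome, and 468215 and 115528 footprints were listed, a footprint being a short stretch protected from cutting inside open DNA. Since the tissue is a mixture, fewer cells with an open site and less opening per cell cannot be told apart. Of 12 muscle markers 6 had a promoter peak in replicate 1 and 5 in replicate 2, among them Ckm (creatine kinase of muscle, heights 2.63 and 3.46) and Actn3 (fast-fibre alpha-actinin, 14.7 and 5.02), while Des, Myh4, Myog and Tnnt3 had none in either library. Of 15 Schwann cell markers 9 and 8 had one, and of 10 endothelial markers 4 and 2. The libraries stood apart in the neuron markers, of which 15 of 15 had a promoter peak in replicate 1 and 7 of 15 in replicate 2. Of all protein-coding genes 66.7% had one in replicate 1 and 51.4% in replicate 2. The muscle and endothelial counts were below those shares, and the Schwann cell counts and the neuron count of replicate 2 were near them. The counts alone do not show which cell types were present. The part of these other cell types, and of the difference in list size, in the results below was not tested.

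Nearly all promoters of the clustered protocadherin genes lacked a peak in both libraries. A promoter peak, defined as a peak within 1 kb of any annotated transcription start site (TSS), was found at 5 of 57 genes in replicate 1 (8.77%, interval 3.81 to 18.9%), beside 66.7% of all protein-coding genes. In replicate 2 it was found at 2 of 57 genes (3.51%, interval 0.968 to 11.9%), beside 51.4% of all genes. A shared promoter peak was present at 2 of 57 genes, beside 45.1% of all genes. The 5 genes of replicate 1 were Pcdhac1, Pcdhac2, Pcdhgc3, Pcdhgc4 and Pcdhga11, and the 2 genes of replicate 2, both shared, were Pcdhac1 and Pcdhgc3.

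The C-type exons made up most of these. A promoter peak was present at 4 of 5 C-type genes in replicate 1 (80%, interval 37.6 to 96.4%) and at 2 of 5 in replicate 2 (40%, interval 11.8 to 76.9%). Of the 52 alternate genes 1 had a promoter peak in replicate 1 (1.92%, interval 0.34 to 10.1%) and 0 in replicate 2 (upper bound 6.88%). No beta gene had one in either library (0 of 22, upper bound 14.9%). Peaks over the body of the variable first exon named the same genes, 5 of 57 in replicate 1 beside 50.5% of all genes and 2 of 57 in replicate 2 beside 37.5%.

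**Figure D1:**
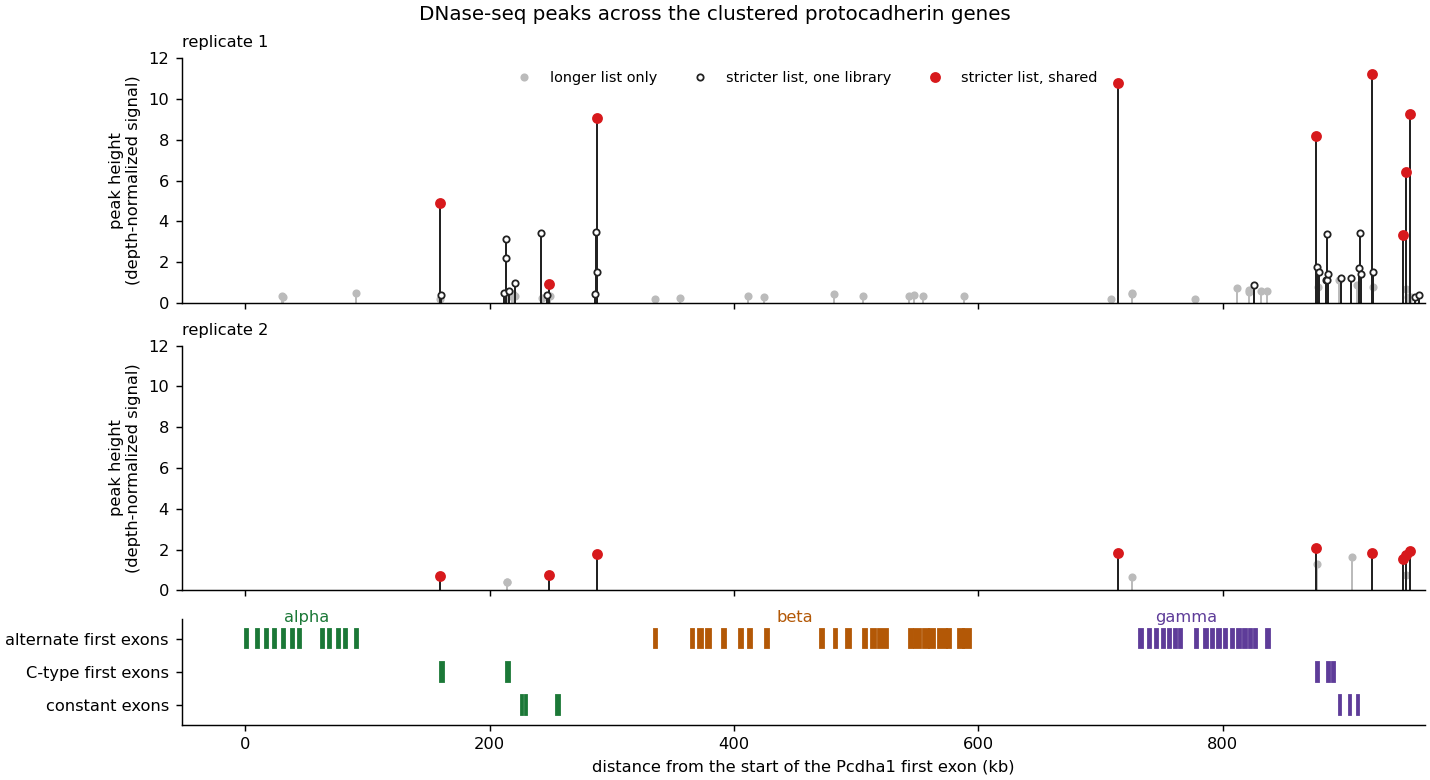
Height of each peak (vertical axis, depth-normalized signal) against its distance from the start of the Pcdha1 first exon (horizontal axis, kb), with replicate 1 above and replicate 2 below, and the exons of the 3 clusters at the bottom. Red points are shared peaks, open points are peaks of the stricter list in a single library, and grey points are in the longer list only; the alpha alternate array and the beta array hold grey points alone in replicate 1 and no point in replicate 2.

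Genes whose promoter had a high observed over expected CpG ratio mostly had a promoter peak. The clustered genes were therefore also read beside others of the same ratio class. GC content was not matched. It was 42.5 to 46.7% over the 12 alpha alternate promoters and 38.9 to 50% over the 18 gamma alternate ones. At Pcdhac2, Pcdhgc3 and Pcdhgc4 it was 57.7%, 58.4% and 50.4%. Among genes whose promoter had an observed over expected CpG ratio above 0.6, 96.8% had a promoter peak in replicate 1, 83.5% in replicate 2 and 74.1% a shared one. Of the clustered protocadherin genes, 22 fell in this class, and 4, 1 and 1 of them had such a peak. These 22 were 11 of the 12 alpha alternate genes, 8 gamma alternate genes and the C-type genes Pcdhac2, Pcdhgc3 and Pcdhgc4. In the middle class (ratio 0.35 to 0.6) the shares over all genes were 76.9%, 50.1% and 42.8%, and of 24 clustered protocadherin genes only Pcdhac1 had a peak, in both libraries. In the class under 0.35 the shares over all genes were 27.9%, 15.5% and 13.0%, and 0 of 11 clustered protocadherin genes had a peak, Pcdhgc5 among them. As a set, the members of the high class fell below the share of their own class in both libraries. Their counting intervals were 7.31 to 38.5% in replicate 1 and 0.807 to 21.8% in replicate 2, and treat these related copies as independent. Of the 19 alternate genes in this class 1 had a peak in replicate 1 and 0 in replicate 2. Of the 3 C-type genes 3 and 1 had one.

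**Figure D2:**
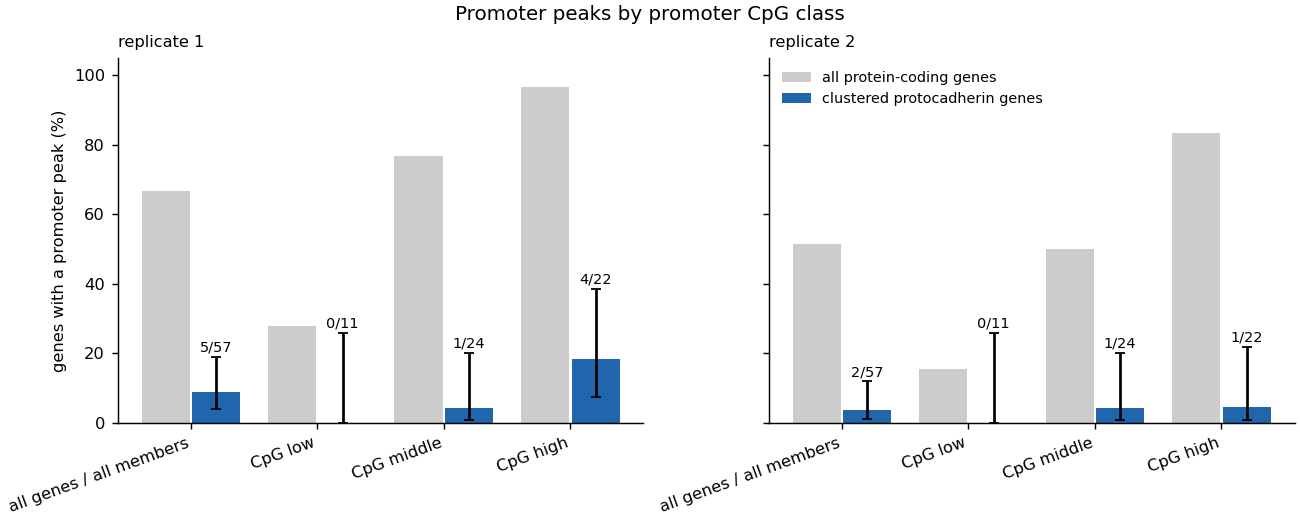
Percentage of genes with a promoter peak (vertical axis) for all protein-coding genes (grey) and the clustered protocadherin genes (blue, with the count above). They are shown over all promoters and in 3 classes of the promoter CpG ratio, in each library. Error bars are Wilson 95% intervals of the blue bars; in the high class 4 of 22 and 1 of 22 clustered protocadherin genes had a peak, beside 96.8% and 83.5% of all genes.

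Among the C-type genes, Pcdhac1 (ENSMUSG00000103255, first exon at chr18:37090013-37092571) had the lowest FDR in replicate 1. Its main peak had a height of 4.89 in replicate 1 and 0.718 in replicate 2, and spanned chr18:37089901-37090060 and chr18:37089916-37090017. The peak covered the TSS in both libraries, with its centre 33 bp before it in replicate 1 and 47 bp before it in replicate 2. The lowest deposited FDR was 1.07e-53 in replicate 1 and 0.000211 in replicate 2, and the promoter held 5 footprints and 1. It was at least as tall as 87.8% of the peaks of replicate 1 and 10.1% of those of replicate 2, so the site was among the tall ones in the first library and among the low ones in the second.

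Pcdhgc3 (ENSMUSG00000102918, first exon at chr18:37806410-37808977) had the tallest promoter peak of the 57 genes in both libraries, at heights of 8.19 and 2.06. The peak of replicate 1 (chr18:37806201-37806440) lay mostly before the TSS and that of replicate 2 (chr18:37806341-37806540) mostly after it, with 6 and 2 footprints inside the peaks and 11 in the whole promoter window in each library. A second peak of replicate 1 stood inside the first exon, 654 bp after a TSS, with a height of 1.75, and another at the end of that exon, with a height of 1.53. In replicate 2 the inner site was present in the longer list only, at a height of 1.31 and an FDR of 0.0111. The antisense gene BC037039 is annotated across this promoter.

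Pcdhac2 (ENSMUSG00000102697, first exon at chr18:37143503-37146530) and Pcdhgc4 (ENSMUSG00000023036, first exon at chr18:37815079-37817983) had peaks of the stricter list in replicate 1 alone. At Pcdhac2 a peak 600 bp wide, with a height of 3.13, and an overlapping one with a height of 2.19 covered the start of the first exon, with 14 footprints and an FDR of 5.06e-31. Replicate 2 listed at Pcdhac2 only weak peaks in the longer list, both with a height of 0.407 and with lowest FDRs of 0.0296 and 0.0226, and no footprint. At Pcdhgc4 replicate 1 had 4 separate peaks, with heights of 1.12, 1.14, 3.40 and 1.44 from upstream to downstream, and 12 footprints. Their lowest FDR was 7.83e-16, while replicate 2 listed nothing there.

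Pcdhgc5 (ENSMUSG00000102543, first exon at chr18:37819513-37822134) was the exception among the C-type genes, with no peak in either list of either library, no footprint and no base with a listed FDR. Its promoter also differed in composition, with a CpG ratio of 0.23 against 0.56, 0.68, 0.80 and 0.67 in Pcdhac1, Pcdhac2, Pcdhgc3 and Pcdhgc4.

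**Figure D3:**
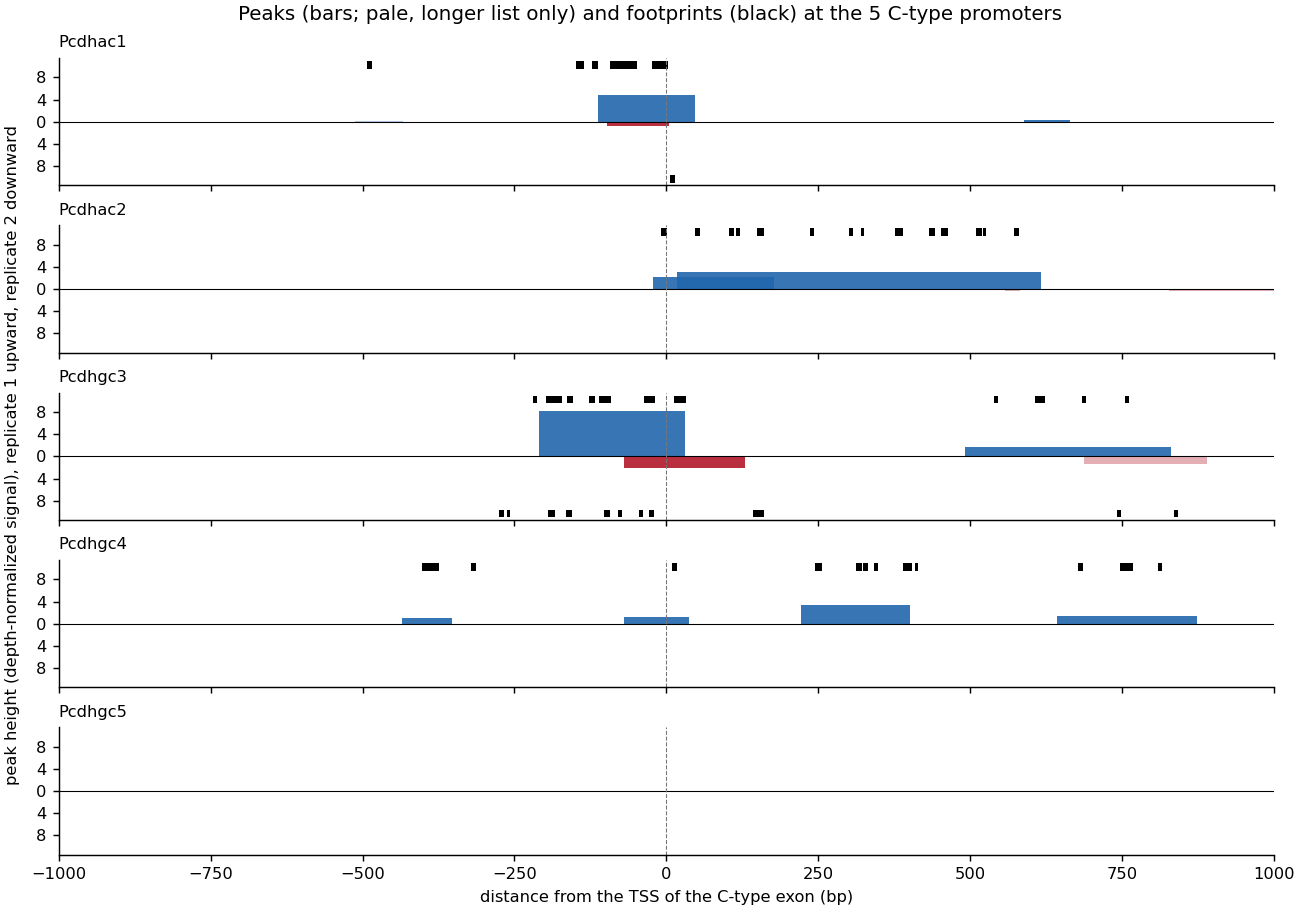
Peaks and footprints around the TSS of each C-type first exon (horizontal axis, bp), with replicate 1 drawn upward and replicate 2 downward (vertical axis, peak height as depth-normalized signal). Bars span the peaks and reach their height, pale bars are in the longer list only, and black marks are footprints; Pcdhac1 and Pcdhgc3 have bars of the stricter list in both libraries, and Pcdhgc5 has none.

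The alternate genes had signal at some promoters in replicate 1, mostly in the longer list alone, and none in replicate 2. In the longer peak lists, which hold sites with an FDR up to 0.05 instead of 0.001, a promoter peak was present at 20 of 57 clustered protocadherin genes in replicate 1, beside 71.1% of all genes, and at 3 of 57 in replicate 2, beside 59.7%. The 20 included 16 of the 52 alternate genes (30.8%, interval 19.9 to 44.3%), and the 3 included none. A base with any listed FDR stood within 1 kb of the TSS at 23 of 57 genes in replicate 1, beside 71.8% of all genes, and at 3 of 57 in replicate 2, beside 60.9%. Footprints were listed at 18 of 57 promoters in replicate 1, beside 69.6% of all genes, and at 2 of 57 in replicate 2, beside 57.6%. For 33 of the 52 alternate genes replicate 1 listed no base at all, and for replicate 2 that held for all 52.

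In the alpha array the weak peaks were at Pcdha5 (heights 0.322 and 0.286, lowest FDR 0.00272) and Pcdha12 (height 0.465, FDR 0.0283), 2 of 12 alternate genes. The peak counted at Pcdha12 was nearest to another start, with its centre at -6 bp from the TSS of the antisense gene Gm10545. In the beta array they were at 9 of 22 genes, Pcdhb1, Pcdhb7, Pcdhb8, Pcdhb10, Pcdhb12, Pcdhb15, Pcdhb16, Pcdhb17 and Pcdhb22, with heights from 0.173 at Pcdhb1 to 0.448 at Pcdhb10. At Pcdhb2, Pcdhb4 and Pcdhb21 only 2, 23 and 12 bases were listed, without a peak. In the gamma array peaks of the longer list were at 5 of 18 genes, namely Pcdhga6 (0.209), Pcdhgb6 (0.71), Pcdhgb7 (0.638), Pcdhga11 (0.901) and Pcdhga12 (0.597). Pcdhga11 alone reached the stricter list, with an FDR of 0.000326 and 4 footprints in its promoter. Over the 16 alternate genes the median height was 0.349, against 0.644 for all peaks of that list. By cluster the medians were 0.394 in alpha, 0.334 in beta and 0.638 in gamma, the last near that of the list.

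In 10 of the 16 alternate genes the centre of the nearest such peak lay 1 to 100 bp before an annotated TSS of that gene, beside 53.0% of all genes with a promoter peak in that list. Examples were Pcdhb10 (32 bp before), Pcdhb7 (43 bp before), Pcdhgb7 (40 bp before), Pcdhga11 (37 bp before) and Pcdhgb6 (74 bp before). In the other 6 it lay after the TSS, from 101 bp at Pcdha5 to 536 bp at Pcdha12. The gamma alternate genes with such peaks were mostly those nearest to the C-type exons, since Pcdhgb6, Pcdhgb7, Pcdhga11 and Pcdhga12 are among the last in the array.

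Sequence shared between neighbouring alternate genes limits how surely reads can be placed. Windows of 31 bases that occur once in the genome made up 72.1 to 92.5% of the promoters of alpha alternate genes, 78.3 to 100% of beta and 81.1 to 100% of gamma alternate genes, against 99.2 to 100% of C-type genes. How the authors treated reads with several placements is not given in the sources used here, and the part of this in the missing peaks was not tested. No beta promoter had a peak in the stricter lists at any share of such windows, so these lists allowed no comparison within that cluster. In the longer list of replicate 1 the shares overlapped. Beta genes with a promoter peak ranged from 81.5% at Pcdhb12 to 100%, as at Pcdhb1. Those without one ranged from 78.3% at Pcdhb9 to 100%, as at Pcdhb13.

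**Figure D4:**
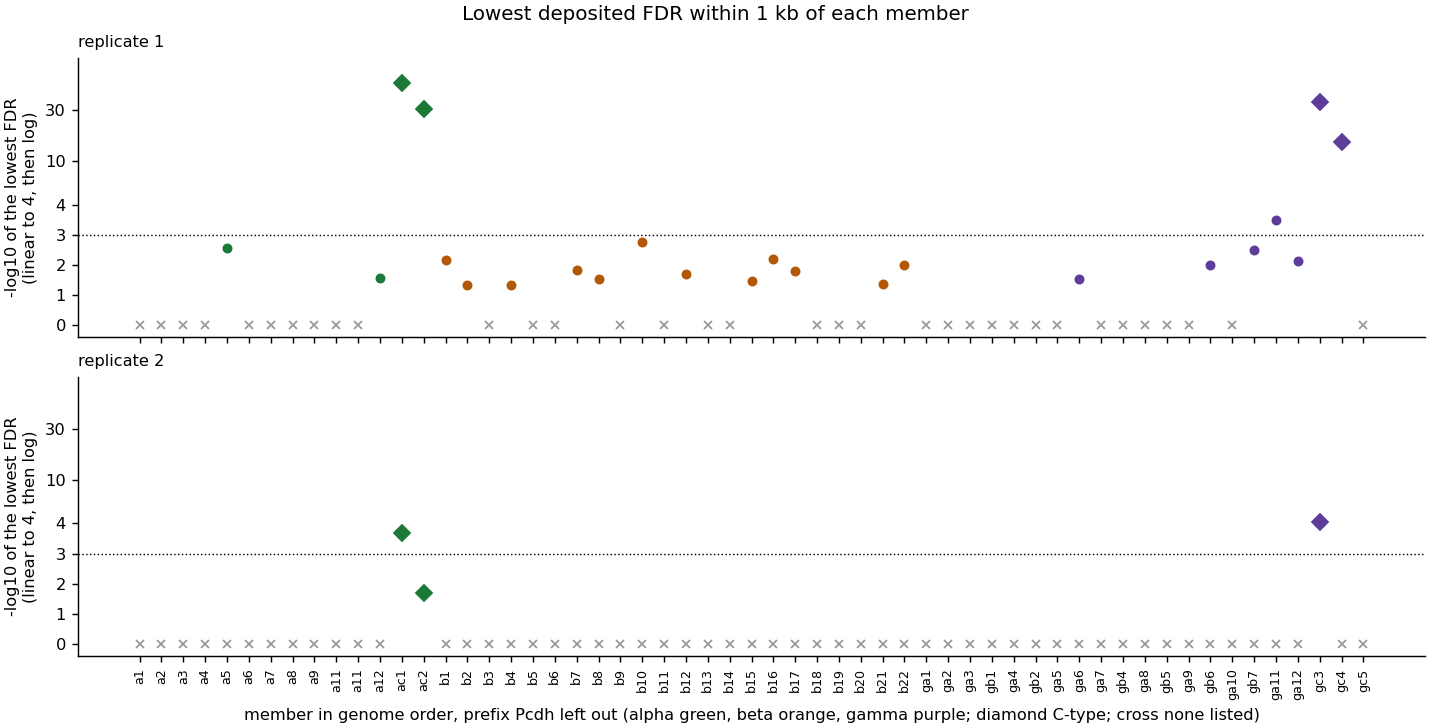
Lowest deposited FDR within 1 kb of a TSS of each of the 57 genes, as -log10 (vertical axis, linear to 4 and logarithmic above), in genome order, for replicate 1 (top) and replicate 2 (bottom); crosses mark genes with no listed base and the dotted line an FDR of 0.001. In replicate 1 the diamonds of 4 C-type genes lie far above the line and Pcdhga11 is the single alternate gene above it; in replicate 2 only Pcdhac1 and Pcdhgc3 are above it.

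The constant exons, which genes of the alpha or of the gamma cluster share, differed between the clusters in replicate 1 alone. The 3 alpha constant exons (chr18:37156155-37156213, chr18:37159265-37159353 and chr18:37184946-37187657) had no peak, footprint or listed base in either library. Of the gamma constant exons, the last (chr18:37839903-37841873) held a peak in replicate 1 at chr18:37841481-37841732 with a height of 1.71, an FDR of 4.47e-07 and 6 footprints over the exon. A weaker peak of the longer list stood at its start in the same library (chr18:37839947-37840180, height 0.877, FDR 0.00186). The first gamma constant exon held a peak of the longer list alone in replicate 1 (height 1.14, FDR 0.0131, 3 footprints), and the second held nothing. That height was at least as tall as 68.6% of the longer list. Replicate 2 listed nothing over any of the 3 gamma constant exons.

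Replicate 1 had 27 peaks from the start of the alpha array to the end of the gamma constant exons, of which 11 were at promoters of the clustered genes, 2 in the rest of a variable first exon, 1 in a constant exon, 8 between exons of a cluster and 5 between clusters. Replicate 2 had 5 peaks there, 2 at promoters, 1 between exons and 2 between clusters. Footprints numbered 148 and 22 in the same span. Both the alpha alternate array (93.4 kb) and the beta array (261 kb) held 0 peaks of the stricter list in both libraries, beside 4.33 and 1.01 peaks per 100 kb over the genome. The gamma alternate array (108 kb) held 1 peak in replicate 1 and 0 in replicate 2, or 0.928 and 0 per 100 kb. The stretch with the alpha C-type exons ran from the end of the Pcdha12 exon to the end of the Pcdhac2 exon (124 kb). It held 4.84 peaks per 100 kb in replicate 1 and 0.807 in replicate 2 (6 peaks and 1), near the density of the genome. The stretch with the gamma C-type exons (53.6 kb) held 13.1 and 1.87 per 100 kb (7 peaks and 1). Most of both stretches lies outside the exons, so these are not densities of the exons themselves. The alpha constant region held 12.2 and 2.43 (5 peaks and 1), and the gamma constant region 15.2 and 0 (3 peaks and 0). These densities rest on few peaks, in replicate 2 on 1 at most. The 50 kb after the gamma cluster held 18 and 8 peaks per 100 kb, whereas the 50 kb before the alpha array held none of the stricter list.

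All 9 peaks that replicate 2 had in the locus and its flanks were shared with replicate 1, where they were 9 of 36. Besides the promoters of Pcdhac1 and Pcdhgc3, 3 lay inside the clusters. The tallest of the region between the alpha and beta clusters was at chr18:37218241-37218460, with a height of 9.08 in replicate 1 (at least as tall as 94.7% of its peaks) and 1.77 in replicate 2 (63.8%). Its centre lay at -46588 bp from the Pcdhb1 TSS, in no exon, with an FDR of 7.89e-133 and 9.43e-11 and with 6 and 2 footprints. In replicate 1 it was flanked by 3 more peaks, the tallest at chr18:37217341-37217420 with a height of 3.48. The second was at chr18:37178361-37178660, with low heights of 0.937 and 0.772, inside the alpha constant region at the start of the noncoding gene Gm10544. The last was the promoter of Taf7, a subunit of the general transcription factor TFIID, which lies between the beta and gamma clusters, with heights of 10.8 and 1.83.

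The remaining 4 shared peaks lay after the gamma cluster in introns of Diaph1, which encodes an actin-nucleating formin. At chr18:37852161-37852400 the height was 11.2 in replicate 1, the tallest of the locus, and 1.85 in replicate 2. At chr18:37883561-37883720 it was 9.24 and 1.94, at chr18:37880181-37880460 6.41 and 1.72, and at chr18:37877301-37877580 3.32 and 1.53. Enhancers of the alpha genes are known from brain between and after the alpha constant exons, and a group of enhancers serving beta and gamma genes from the region after the gamma cluster. Their positions were not matched to these peaks. In replicate 1 alone, 1 further tall peak stood inside the alpha constant region, at chr18:37172301-37172460 with a height of 3.42, in an exon of the antisense gene Gm38097.

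CTCF, which anchors DNA loops and binds beside most alternate promoters in neurons, was followed through the core of its motif, written as CC, then 3 free letters, then AGGNGGC, and matched on both strands. Within 500 bp of the TSS of the first exon the core was present at 14 of 57 clustered protocadherin genes, beside 9.99% of all genes. It was present at 10 of the 12 alpha alternate genes, always on the plus strand, 104 to 229 bp after the TSS with a median of 205 bp. Of the gamma alternate genes 3 of 18 had it (Pcdhga5, Pcdhga10 and Pcdhga11), of the beta genes 0 of 22, and of the C-type genes only Pcdhac1. In 10 beta genes the core stood instead on the minus strand, 2364 to 2810 bp after the TSS. The alternate exons of a cluster are related copies, so these matches are not independent of each other.

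Few of the matches lay in open DNA, over the whole genome as well as inside the clusters, with the shares given below. Of the 10 matches beside alpha alternate promoters, 1 lay in a peak or footprint, at Pcdha5, in a weak peak of the longer list of replicate 1. None of the 10 beta and 4 gamma matches did. The match at Pcdhac1, 72 bp before the TSS on the plus strand, lay inside the promoter peak of both libraries and in a footprint of replicate 1. Around the 10 alpha matches only 27 to 89.6% of the 31-base windows occurred once in the genome, against 100% at Pcdhac1. Over the locus with its flanks, 10% of the 40 matches lay in a peak of replicate 1 and 2.5% in one of replicate 2, beside 12.4% and 4.55% of the 63776 matches of the genome. In the longer list of replicate 1 the shares were 12.5% and 15.8%. Of the matches in a stricter peak of replicate 1, only that at Pcdhac1 lay inside the clusters. The others were the 3 matches of the 50 kb after the gamma cluster, all of them in a peak. The minus-strand match in the intronic Diaph1 peak of height 11.2 lay in a footprint in both libraries. In replicate 2 it lay in a peak of the longer list but outside the stricter peaks. A minus-strand match in the last gamma constant exon lay in a footprint of replicate 1. The core of the REST motif (CAGCACC, 2 free letters, GGACAG), the site of the repressor of neuronal genes in other tissues, had 0 matches in the locus, of 620 in the genome. At the density of the genome 0.237 matches would fall in a stretch of this length, so the count of 0 carries no information on the locus.

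**Figure D5:**
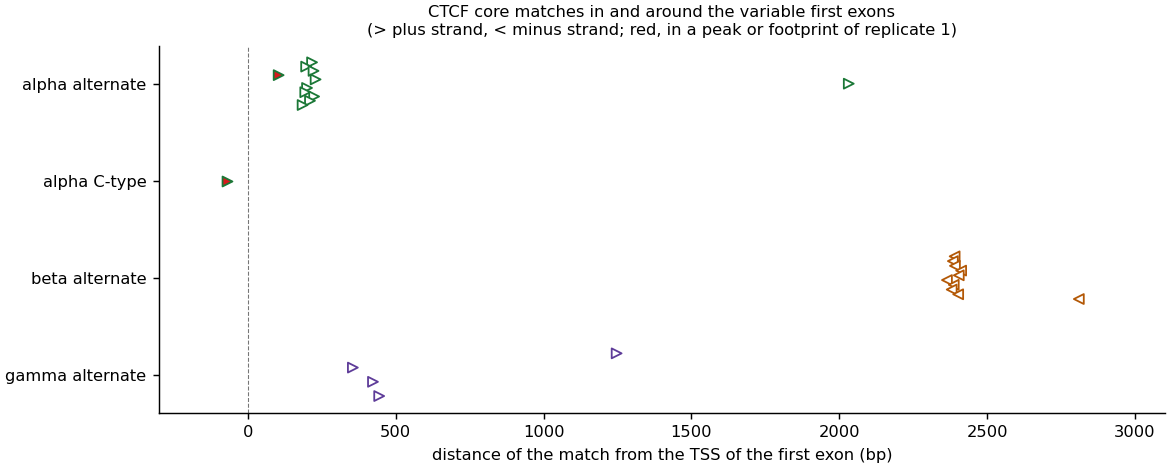
Position of each CTCF core match relative to the TSS of its first exon (horizontal axis, bp) for alpha alternate, alpha C-type, beta and gamma alternate genes; arrowheads point along the strand and red ones lie in a peak or footprint of replicate 1. Alpha matches gather about 205 bp after the TSS on the plus strand and beta matches near 2390 bp on the minus strand, and 2 matches, at Pcdha5 and Pcdhac1, are red.

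Other adhesion genes and the regulators of the locus were described from lists of related genes. Of 12 nonclustered protocadherins, which are single genes elsewhere in the genome, 11 had a promoter peak in replicate 1 and 6 in replicate 2, all 6 shared. Of all genes 66.7% and 51.4% had one, so the count of replicate 2 was near that share. Examples were Pcdh10 (heights 15.7 and 2.47), Pcdh17 (13.3 and 2.19), Pcdh1 (6.93 and 1.43) and Pcdh9 (12.9 and 1.11), and Pcdh12, known from endothelium, had none. Of 19 classical cadherins 17 and 7 had one, above the 66.7% of all genes in replicate 1 and below the 51.4% in replicate 2. Examples were Cdh15, the M-cadherin of muscle (3.19 and 1.57), and Cdh24 (6.52 and 3.24), while Cdh5 and Cdh19 had no promoter peak in either. Genes for CTCF, cohesin and their partners had one in both libraries throughout, 12 of 12, all shared, as at the cohesin genes Smc3 (21 and 4.05) and Stag1 (27.4 and 3.78); all 12 promoters were of the high CpG class, in which 96.8% and 83.5% of all genes had a peak. Genes for DNA methylation and silencing factors had one at 12 of 12 promoters in both libraries, 11 of them shared. Among them were Smchd1 (11.4 and 1.9), which helps keep the clusters silent, the maintenance methyltransferase Dnmt1 (17.9 and 2.66), and Trim28 (10.5 and 4.67). Most of the 12, those named here included, were of the same high CpG class. Tet3 and Wiz were of the middle class and Dnmt3a of the low one. Of 10 genes for proteins that clustered protocadherins bind or signal through, 9 and 6 had one, beside the same shares of all genes, with the cytoskeleton regulator Wasf1 (18.2 and 2.91) and the kinase gene Fyn (13.4 and 2.11) in both and the kinase gene Ptk2b in neither.

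Most genes around the clusters had a promoter peak. Of 7 neighbouring genes 6 had one in both libraries, all shared, beside 51% of all genes with one in both and 45.1% with a shared one. Examples were Zmat2 (heights 12.4 and 2.67), Hdac3 (11.7 and 2.65), Diaph1 (18.5 and 1.99) and Hars (7.98 and 2.17). Hars2, also counted, had the same heights as Hars. Zmat2, Taf7, Diaph1 and Hars were of the high CpG class, in which 96.8% and 83.5% of all genes had a peak. The exception was Slc25a2, which like Taf7 lies between the beta and gamma clusters and had no promoter peak in either.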

How the data were processed

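DNase-seq of 2 libraries of 1 group was taken from the authors' deposited lists on mm10. Per the labels each library is a biological replicate; which aligner and callers made the lists is not given in the sources used here. Peak heights are a signal normalized to depth by the authors. The deposited intervals carry an FDR, a q-value, and the score of the deposited footprints was the same for all and was not used. The stricter (shorter) of 2 peak lists per library was used. Genes and TSSs came from GENCODE M21 and sequence from GRCm38, whose chromosome 18 has the length given for mm10. The observed over expected CpG ratio was taken 500 bp to each side of the TSS, in classes bounded at 0.35 and 0.6. A constant exon was one shared by at least 5 genes. No test was run. All members were named, with the 5 tallest and all shared peaks of the locus and 50 kb beyond, and from each other list up to 4 genes with a promoter peak in both libraries and up to 4 in neither. Members and lists were chosen with earlier results of these data known. Read totals were not used here, so the number of reads behind a height is unknown. Overlap code missed 0 of 200 planted promoters in simulated data and matched bedtools 2.31.1 in 3 counts. Intervals were handled with pandas 2.3.3 and numpy 2.4.6 in Python 3.11.15, motif and k-mer scans with numba 0.67.0, and plots with matplotlib 3.10.9.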

Additional observations from a re-analysis of the deposited data

How the results depend on the processing

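Of 51 alternative values of the reported counts, 39 stayed within 1.5 times the reported one, and of 50 alternative values of the counts by region class 33 did and 17 did not. The longer lists gave 20 members with a promoter peak, 17 with a first-exon peak and 60 peaks in the clusters in replicate 1, and 10 such peaks in replicate 2. The taller 50% of each list gave 16 peaks in the clusters in replicate 1 and 3 in replicate 2, and left Pcdhgc3 as the 1 member with a promoter, first-exon or shared peak in replicate 2. At the 26804 tallest peaks of each library, replicate 1 kept 8 peaks in the clusters and 4 of its 5 members, losing Pcdhga11, beside 49.6% of all genes. Requiring an overlap of 50% of both peaks left Pcdhac1 as the 1 shared member. Leaving out a library in turn gave 2 to 5 members. In every setting run, at most 1 alternate gene had a promoter peak in replicate 1, except the longer list (16), and 0 in replicate 2. No paired analysis was possible because there is 1 group. The longer list and the tallest peaks change by construction how many peaks enter; the cause of the other shifts was not tested.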
